A study of Mus musculus with 16 samples.

Results

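Oxidative phosphorylation subunits are the proteins of the 5 enzyme complexes of the inner mitochondrial membrane. The genes described here were chosen by name: every gene on the array whose symbol starts with Nduf, Uqcr or Atp5, the Sdh subunit genes, and Cox genes of the numbered subunit families. A gene was kept when a probe for it was detected (detection p-value under 0.05) on at least 2 of the 16 arrays, and its brightest kept probe stood for it. Of 85 genes that matched, 77 were kept, out of 9903 genes tested in all. Among the 77, 71 were counted as subunits. By symbol, 33 were assigned to complex I, 3 to complex II, 7 to complex III, 13 to complex IV and 15 to complex V. The other 6 were complex I assembly factors (Ndufaf1, Ndufaf3, Ndufaf4, Ndufaf5 and Ndufaf7) and a pseudogene, Ndufs5-ps, and were counted apart. The rule used names and detection and no difference between groups, but it was chosen with earlier results of these data known.

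RNA of 16 MMTV-Neu mammary tumours, a model in which a mouse mammary tumour virus promoter drives the Neu oncogene, was hybridised to bead arrays, 1 array for each tumour. Of these, 9 were secondary tumours started by 1 transplanted tumour-initiating cell each (single TIC), 2 were secondary tumours from transplanted lineage-negative (lin-) cells, and 5 were primary. All 16 are labelled as FvB in strain and as smaller than 1.0 cm across, and all are named as MMTV-Neu tumours. The series asks how secondary tumours differ from primary ones. Neither the genotype and age of the hosts nor shared donors are stated, so the p-values here rest on spread among the tumours measured, which may share a donor, and host and tumour origin cannot be told apart. Tumours are numbered here within their group for naming only. Krt8 and Krt18, keratins of luminal epithelium, were detected on all 16 arrays, and Krt19 on 0.

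The electron transport chain passes electrons from NADH (through complex I) and succinate (through complex II) to ubiquinone, then through complex III and cytochrome c to complex IV, which reduces oxygen. Complexes I, III and IV pump protons out of the matrix, and complex V, the ATP synthase, uses their return to make ATP. Most subunits are encoded in the nucleus, and a core set in mitochondrial DNA, which the name rule did not cover. A few complex IV subunits exist as a ubiquitous isoform and an isoform of muscle, heart or brown fat. Mammary tumour tissue mixes carcinoma cells with stroma, vessels, immune cells and fat, all of which hold mitochondria. In such bulk tissue, fewer cells of a type and less RNA per cell cannot be told apart.

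The arrays were close in the share of probes detected, while mean raw intensity was lower on average in primary tumours. Between 49.49% and 51.22% of probes were detected in single TIC tumours, 49.89% and 50.02% in lin- tumours, and between 48.69% and 50.32% in primary tumours. Mean raw intensity was 961 ± 52.4 in single TIC tumours (SD, n = 9), 961 ± 85.8 in lin- tumours (n = 2) and 882 ± 57.1 in primary tumours (n = 5). It ran between 866 and 1031 in single TIC and between 805 and 935 in primary tumours. The arrays least like the rest by median correlation were single TIC 4 (0.9575) and primary 2 (0.9622). All levels below are log2 normalized intensities, and a level is compared between tumours, not between genes, because probes differ in brightness.

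Most subunit genes had slightly higher means in single TIC tumours, compared with primary ones, and few passed the test. In limma's test with Benjamini-Hochberg adjustment over all genes, 3 of the 77 genes passed an adjusted p of 0.05, all higher: Ndufb10 of complex I, and Atp5o and Atp5e of complex V. Over all 9903 genes 2.13% passed as higher and 4.13% as lower. The count for the 77 ranged between 1 (without primary 3) and 7 (without primary 2) when 1 tumour was left out, and it was 7 without both primary 2 and single TIC 4. The count over all genes, 620, was 260, 784 and 761 in the same 3 fits. No subunit or assembly factor gene passed as lower, and at an unadjusted p under 0.05, limma gave 16 of 77 higher and 0 lower, against 10.2% and 15.1% of all genes. The log2 change was above 0 for 58 of 71 subunits, 81.7%, and for 46.5% of all genes. The median log2 change was 0.11 over the subunits and -0.02 over all genes. These shares describe the genes and were not tested as a set, since genes measured on the same arrays are not independent.

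Changes were small in nearly every subunit, as measured by its brightest kept probe. For 61 of 71 subunits the 95% interval of the difference lay within 1.5-fold in either direction, and for 70 of 71 within 2-fold. The exception to the 2-fold limit was Cox8b. The median log2 change was 0.10 in complex I (28 of 33 above 0), 0.20 in complex II (3 of 3), 0.01 in complex III (4 of 7), 0.10 in complex IV (9 of 13) and 0.17 in complex V (14 of 15). Complex III had the lowest median and its members split between signs, while nearly all of complex V lay above 0. When 1 tumour was left out, the median of complex III ran between -0.041 and 0.023. Differences between the complexes were not tested.

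**Figure D1:**
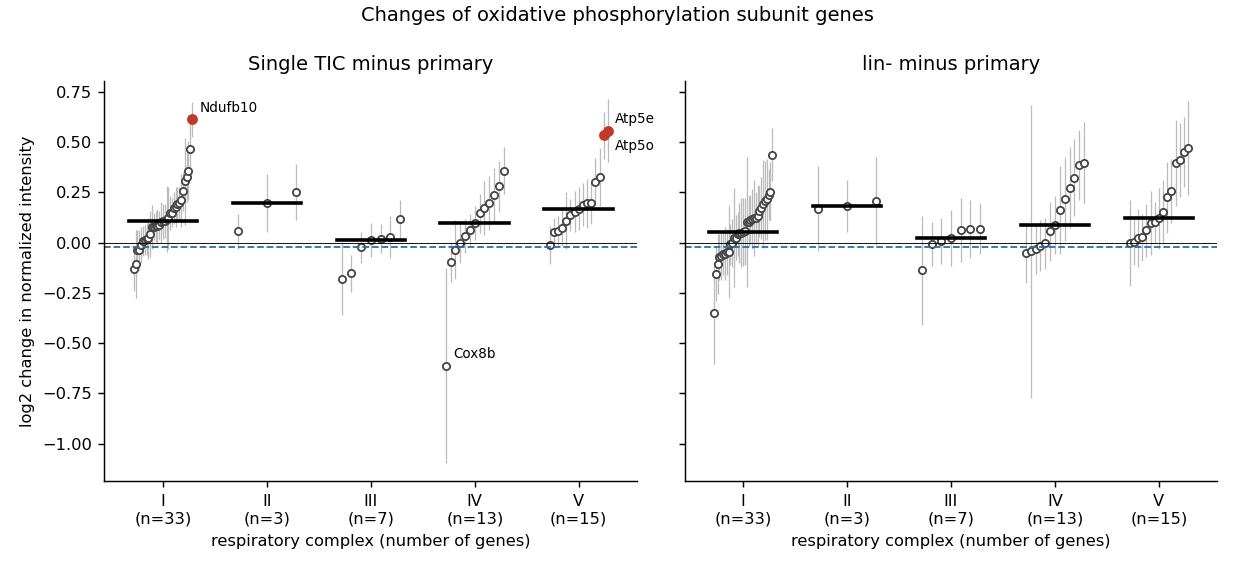
Log2 change of each of the 71 subunit genes (circles, ± SE), single TIC minus primary on the left and lin- minus primary on the right, by respiratory complex. Thick bars are complex medians, the dashed line is the median of all genes, and filled circles passed an adjusted p of 0.05. On the left Ndufb10, Atp5e and Atp5o stand highest and Cox8b lowest with the widest error. On the right no circle is filled.

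Ndufb10, an accessory subunit of the membrane arm of complex I, had levels of 10.62 at the lowest, 10.80 at the median and 11.05 at the highest in the 9 single TIC tumours (probe ILMN_2900216). The 2 lin- tumours had 10.57 and 10.70, and the 5 primary tumours 10.37, 10.10, 10.08, 10.27 and 10.14. Every secondary tumour was above every primary tumour. The log2 change between single TIC and primary tumours was 0.61 (SE 0.09, 95% interval 0.43 to 0.80), 1.53-fold, with an adjusted p of 0.00392 (limma). It was the only gene of the 77 whose single TIC and primary tumours did not overlap, where 0.828% of all genes were higher without overlap and 1.66% lower. Means were 10.81 ± 0.14 in single TIC (n = 9), 10.63 ± 0.09 in lin- (n = 2) and 10.20 ± 0.12 in primary tumours (n = 5).

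Atp5o encodes the oligomycin sensitivity conferring protein, part of the stalk that holds the catalytic head of ATP synthase to its membrane part. Its levels (probe ILMN_2917540) were 8.30 at the lowest, 8.70 at the median and 8.91 at the highest in single TIC tumours, 8.57 and 8.56 in lin- tumours, and 7.81, 8.27, 7.89, 8.42 and 8.18 in primary tumours. Single TIC 3, the lowest of its group, lay below primary 4, the highest primary tumour, and the other single TIC tumours were above all primary ones. Atp5o rose by 0.53 on the log2 scale (SE 0.12, 95% interval 0.29 to 0.78), 1.45-fold, with an adjusted p of 0.0166 (limma). Without primary 3 the adjusted p was 0.0533 (limma) with a change of 0.48.

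Atp5e encodes the epsilon subunit, in the foot of the central stalk of ATP synthase. Its levels (probe ILMN_2604794) were 8.58 at the lowest, 9.002 at the median and 9.43 at the highest in single TIC tumours, 8.94 and 8.99 in lin- tumours, and 8.51, 8.21, 8.05, 8.79 and 8.90 in primary tumours. Primary 4 and primary 5 lay within the range of the single TIC tumours, and primary 1, 2 and 3 below it. Atp5e rose by 0.56 (SE 0.16, 95% interval 0.23 to 0.89), 1.47-fold, with an adjusted p of 0.0448 (limma). This call sat at the threshold: it was lost in 12 of 16 fits that left out 1 tumour, namely those without primary 1, 2, 3, lin- 1, 2 and single TIC 1, 2, 3, 4, 6, 7, 8 in turn, with adjusted p-values between 0.0556 and 0.126 (limma).

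Several measures of the arrays and the tissue moved with the groups beside these 3 genes. With mean raw intensity of the array as a covariate, Ndufb10 kept its call (adjusted p = 0.0334, limma), while Atp5o (log2 change 0.45, adjusted p = 0.138) and Atp5e (0.73, adjusted p = 0.0889) lost theirs. In that fit 18 genes of all 9903 passed, against 620 without the covariate. The summed level of 12 measured fibroblast and matrix markers (of 14 listed) ranged between 12.18 and 13.75 in single TIC, 13.16 and 13.43 in lin-, and 10.35 and 13.46 in primary tumours. That of 9 endothelial markers (of 11) ranged between 11.02 and 11.82 in single TIC, 11.43 and 11.58 in lin-, and 8.58 and 11.50 in primary tumours, and 1 of the 9 (Ramp2) passed the test as higher in single TIC tumours. Macrophage markers (9 of 13 measured) ranged between 13.16 and 14.14 in single TIC, 12.97 and 13.79 in lin-, and 12.45 and 14.02 in primary tumours, and adipocyte markers (6 of 11) between 10.25 and 12.46, 10.43 and 11.15, and 9.92 and 10.59 in the same groups. Luminal epithelial markers (11 of 14) spanned 15.50 to 15.76 in single TIC, 15.46 to 15.77 in lin- and 15.62 to 15.81 in primary tumours. Of the 11, 3 had a log2 change above 0 between single TIC and primary tumours, and the median change was -0.14. Cldn7, 1 of these 3, passed as higher in single TIC tumours. All of these ranges overlapped between single TIC and primary tumours. Their part in the results was not tested.

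**Figure D2:**
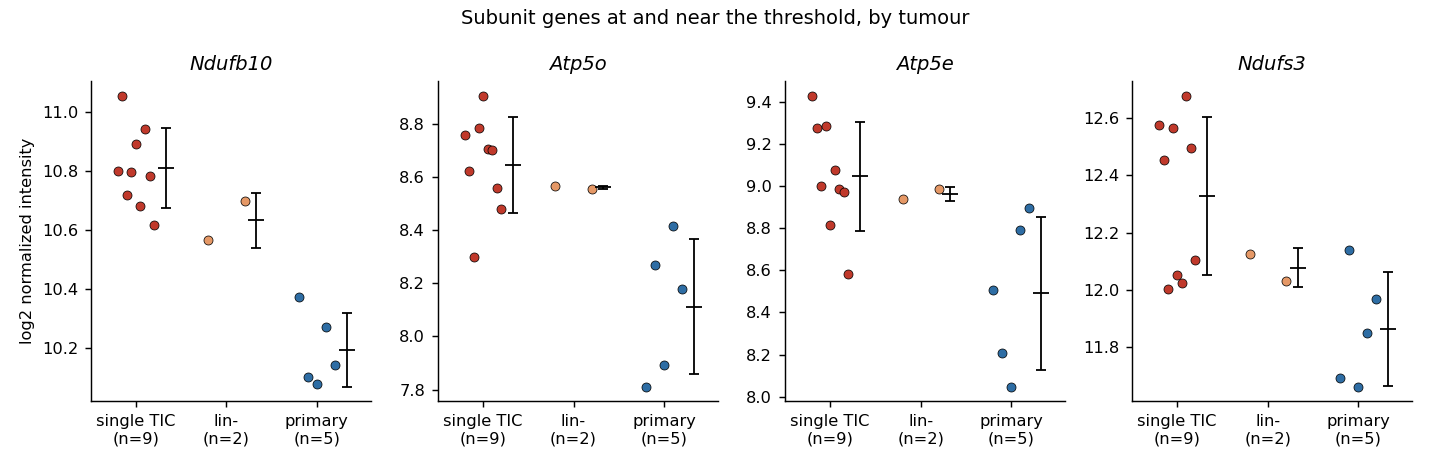
Log2 normalized intensity of Ndufb10, Atp5o, Atp5e and Ndufs3 in each tumour (circles), with mean ± SD beside each group of 9 single TIC, 2 lin- and 5 primary tumours. Vertical scales differ between panels. Primary tumours lie apart for Ndufb10, where the lowest secondary tumour has 10.57 and the highest primary tumour 10.37, and overlap with single TIC tumours for the other genes.

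The promoter sequences of the 3 genes that passed the test are printed to show what lies directly upstream of them. Each is the 250 bases before the annotated start of the gene, 5′ to 3′ on the gene's own strand, from RefSeq on GRCm38.p6, and all 3 genes are on the minus strand: Ndufb10 at chr17:24724424-24724673, Atp5o at chr16:91931631-91931880 and Atp5e at chr2:174464102-174464351. Capitals mark matches to any of 5 motifs of factors known for nuclear genes of oxidative phosphorylation, searched on both strands: NRF1 (GCGCA, then any base, then GCGC), the ETS family to which GABP belongs (CCGGAAG), YY1 (AAGATGGC), SP1 (GGGCGGG) and the ERR receptors (TCAAGGTCA).
Ndufb10: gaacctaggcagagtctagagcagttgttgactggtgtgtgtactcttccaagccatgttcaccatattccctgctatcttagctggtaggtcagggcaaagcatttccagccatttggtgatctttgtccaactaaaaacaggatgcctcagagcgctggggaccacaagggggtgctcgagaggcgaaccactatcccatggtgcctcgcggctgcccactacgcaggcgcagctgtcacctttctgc
Atp5o: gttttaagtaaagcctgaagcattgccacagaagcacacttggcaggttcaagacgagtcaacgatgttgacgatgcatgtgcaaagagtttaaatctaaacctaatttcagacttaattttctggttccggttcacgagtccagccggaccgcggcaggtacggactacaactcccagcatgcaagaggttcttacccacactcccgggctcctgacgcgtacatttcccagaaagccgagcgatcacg
Atp5e: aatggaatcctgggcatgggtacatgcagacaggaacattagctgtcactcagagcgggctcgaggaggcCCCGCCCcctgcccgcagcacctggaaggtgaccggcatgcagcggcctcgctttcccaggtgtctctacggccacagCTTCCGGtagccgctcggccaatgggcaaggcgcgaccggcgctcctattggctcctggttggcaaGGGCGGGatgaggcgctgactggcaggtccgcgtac
Only Atp5e had matches: 1 ETS match in reverse orientation, 102 to 96 bases before the start, and SP1 matches 180 to 174 bases (reverse) and 36 to 30 bases (forward) before it. These letters were not found in the windows of Ndufb10 and Atp5o.

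Promoters were at hand for 62 of the 71 subunits. Of these, 8 held the NRF1 letters (12.9%), 11 the ETS letters (17.7%), 0 the YY1 letters, 18 the SP1 letters (29.0%) and 1, Atp5g3, the ERR letters. Among promoters of 8034 tested genes the shares were 8.04% for NRF1, 13.3% for ETS, 1.99% for YY1, 43.0% for SP1 and 0.236% for ERR, and among all 32851 promoters 3.74%, 6.91%, 1.56%, 23.4% and 0.387% in the same order. A match of letters describes the sequence and does not show that a factor binds.

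Complex I takes electrons from NADH. Besides Ndufb10, its largest changes were in Ndufs3, a core subunit of the arm that reaches into the matrix, and Ndufa8, an accessory subunit. Ndufs3 had levels of 12.004 at the lowest, 12.45 at the median and 12.68 at the highest in single TIC tumours, 12.13 and 12.03 in lin- tumours, and 11.69, 12.14, 11.66, 11.85 and 11.97 in primary tumours. Each of the 9 single TIC tumours exceeded the primary mean, but primary 2 lay among them. The log2 change was 0.46 (SE 0.14, adjusted p = 0.0520, limma), and it passed without primary 2 or single TIC 3, 5, 6 or 9 (adjusted p 0.0349 to 0.0493). It also passed with the authors' processed values or no background correction (0.0408), median scaling (0.0419) and an offset of 50 (0.0452). The same held for probes detected on all 16 arrays (0.0402), array weights (0.0490) and without both primary 2 and single TIC 4 (0.0468, all limma). In all, Ndufs3 passed in 12 of 27 alternatives, and it missed the threshold with mean raw intensity as a covariate. Its adjusted p was 0.129 at the highest when 1 tumour was left out and 0.148 under the other alternatives (limma). Ndufa8 had a change of 0.36 (95% interval 0.05 to 0.67, adjusted p = 0.142, limma). Ndufb9, another accessory subunit, had the widest spread within groups in this complex (SD 0.41), with 10.79 in single TIC 4 and 10.54 in primary 5 at the top. The probe of Ndufs1, the largest core subunit, was detected on 0 of 16 arrays.

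Complex II, succinate dehydrogenase, also works in the tricarboxylic acid cycle. Its 3 measured genes lay above 0 and none passed the test. Sdhb, the iron-sulfur subunit, had a log2 change of 0.20 (95% interval -0.11 to 0.51). Sdhc and Sdhd, the membrane anchors, had changes of 0.06 (-0.13 to 0.24) and 0.25 (-0.05 to 0.55). The adjusted p-values of the 3 genes were 0.415, 0.732 and 0.277 (limma). Sdhb reached 10.36 in single TIC 1 and 11.41 in single TIC 7, so the single TIC tumours spread beyond the primary ones (10.68 to 11.02) on both sides. Sdha, the flavoprotein subunit, was not analysed here.

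Complex III, which hands electrons on to cytochrome c, had genes on both sides of 0 and none that passed the test. Uqcrh, the hinge protein, had levels of 14.12 at the lowest, 14.37 at the median and 14.62 at the highest in single TIC tumours, 14.54 and 14.57 in lin- tumours, and 14.30, 14.54, 14.57, 14.64 and 14.63 in primary tumours. Of the 9 single TIC tumours 1 exceeded the primary mean, and the change was -0.15 (95% interval -0.35 to 0.04, adjusted p = 0.316, limma). Uqcrb, a small subunit, had a change of 0.12 (-0.09 to 0.32). Uqcrfs1, the Rieske iron-sulfur protein, had -0.18 (-0.57 to 0.20), but its probe was dim and detected on 9 of 16 arrays. The core proteins Uqcrc1 and Uqcrc2 had changes of 0.03 and 0.01.

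Complex IV, cytochrome c oxidase, reduces oxygen to water. Its highest change was in Cox5a, a nuclear-encoded subunit on the matrix side. Cox5a had levels of 13.38 at the lowest, 13.61 at the median and 13.92 at the highest in single TIC tumours, 13.67 and 13.69 in lin- tumours, and 13.16, 13.60, 12.94, 13.45 and 13.33 in primary tumours. Each of the 9 single TIC tumours exceeded the primary mean, and 3 primary tumours lay below every one of them. The log2 change was 0.36 (SE 0.12, adjusted p = 0.0773, limma), with an adjusted p of 0.0368 without primary 2. Cox7b, another small subunit, had a change of 0.28 (SE 0.13, adjusted p = 0.185, limma; 0.0405 without primary 4).

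Among the isoform pairs of complex IV, only Cox7a1 with Cox7a2 and Cox8b with Cox8a had both members measured. The tissue-restricted and the ubiquitous member differed more in spread for the Cox8 genes. Cox8b, the isoform of muscle, heart and brown fat (probe ILMN_2727520), had levels of 7.61 at the lowest, 9.32 at the median and 10.67 at the highest in single TIC tumours, 8.94 and 10.44 in lin- tumours, and 9.06, 9.23, 10.22, 10.28 and 9.89 in primary tumours. The single TIC tumours lay on both sides of all primary tumours and spanned 8.36-fold. The log2 change was -0.61 with an interval of -1.64 to 0.42 (SE 0.49, adjusted p = 0.455, limma), which does not settle a direction. Its SD within groups was 0.96, where the median was 0.16 over the 71 subunits and 0.27 over all genes. Cox8a, the ubiquitous partner, spanned 1.35-fold in single TIC tumours, with means of 14.32 ± 0.15 in single TIC (n = 9) and 14.32 ± 0.19 in primary tumours (n = 5) and an interval of -0.21 to 0.21.

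Cox8b was measured beside markers of the tissues it is known from. Acta1, skeletal muscle actin, was detected on 3 arrays, at 7.90 in single TIC 1, 5.81 in single TIC 8 and 9.39 in primary 1, where Cox8b had levels of 8.08, 8.19 and 9.06. Ucp1, the uncoupling protein of brown fat, was detected on 1 array, at 6.78 in single TIC 2, where Cox8b was 9.85. Of the other muscle markers, Mb (myoglobin) was detected on 16 arrays, Tnni2 (a fast muscle troponin) on 14, Mylpf (a myosin light chain) on 4, and the creatine kinases Ckm and Ckmt2 on 0. Of the fat markers, Cidea was detected on 16 arrays, Adipoq on 9 and Car3 on 5. The summed level of 7 measured muscle markers (of 14) ranged between 9.08 and 10.47 in single TIC, 9.84 and 10.23 in lin-, and 9.84 and 11.13 in primary tumours. The arrays with the highest Cox8b were single TIC 5 and single TIC 9. Acta1 and Ucp1 were not detected on them, while Mb (9.93 and 9.78) and Tnni2 (5.64 and 6.10) were, and single TIC 9 had Adipoq at 10.17 and Car3 at 9.38, both not detected in single TIC 5. Single TIC 7, the lowest in Cox8b, also had the lowest Mb of all arrays, 7.85. The next lowest Mb, 8.82, was in single TIC 2, where Cox8b was 9.85, above the median of its group. The part of muscle or fat cells in the spread of Cox8b was not tested.

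None of the other measured isoforms passed the test. Cox7a1, the heart and muscle isoform, had a change of -0.04 (95% interval -0.35 to 0.27) and its ubiquitous partner Cox7a2 one of 0.17 (-0.11 to 0.46). Cox7a2l, which takes part in joining complexes III and IV into supercomplexes, had 0.20 (-0.09 to 0.48). Cox4i1, Cox6a1 and Cox6b1, the ubiquitous forms, had 0.03, 0.23 and 0.06. The dimmer kept probes of Cox6a1 and Cox6b1 had 0.28 and 0.21, so the size for Cox6b1 depended on the probe. Ndufa4, counted here in complex I by its symbol but since assigned to complex IV, had 0.08 (-0.09 to 0.26). Of their tissue-restricted partners, Cox4i2, Cox6b2, Cox7b2 and Cox8c were detected on 0 of 16 arrays and Cox6a2 on 1, so none of these 5 was tested.

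**Figure D3:**
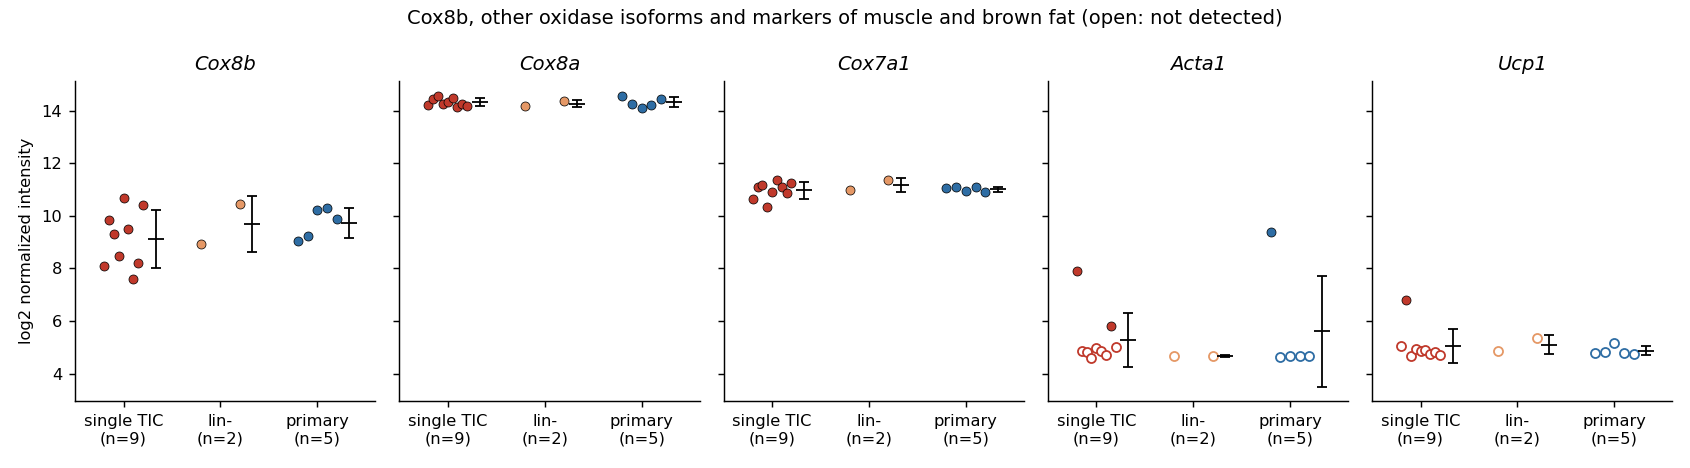
Log2 normalized intensity of Cox8b, Cox8a, Cox7a1, Acta1 and Ucp1 in each tumour, with mean ± SD beside the 9 single TIC, 2 lin- and 5 primary tumours; open circles were not detected. Cox8b runs between 7.61 and 10.67 in single TIC tumours, Cox8a between 14.12 and 14.56 and Cox7a1 between 10.35 and 11.38. Levels are not compared between panels, since probes differ in brightness.

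Complex V held 2 of the 3 genes that passed, both in the stalks between head and membrane. Atp5pb, subunit b of the peripheral stalk, had levels of 11.98 at the lowest, 12.22 at the median and 12.39 at the highest in single TIC tumours, 12.23 and 12.25 in lin- tumours, and 11.14, 12.31, 11.90, 11.95 and 11.92 in primary tumours. Primary 2 lay among the single TIC tumours and the other 4 primary tumours below all of them, and the change was 0.33 (SE 0.14, adjusted p = 0.166, limma). Atp5g1, Atp5g2 and Atp5g3 all encode the same c subunit of the membrane rotor, with different targeting sequences. Their changes were 0.30 (95% interval 0.05 to 0.55), 0.17 (-0.05 to 0.39) and 0.20 (-0.03 to 0.42), and none passed the test. Atp5g1 had an adjusted p of 0.0308 without primary 2, and 0.284 at the highest with another tumour left out (limma). Atp5b, the catalytic beta subunit, had a change of -0.01, the only one below 0 in complex V, and Atp5a1, the alpha subunit, 0.11. The probe of Atp5k, a small subunit of the membrane part, was detected on 0 of 16 arrays.

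The 5 measured complex I assembly factors, which help to build the complex and are not part of it, all lay above 0 and none passed the test. Ndufaf5 had the largest change, 0.49 (SE 0.17, adjusted p = 0.0949, limma), with 8.58 at the lowest, 9.30 at the median and 9.66 at the highest in single TIC tumours and 8.31 to 8.80 in primary tumours. Ndufaf1, Ndufaf3, Ndufaf4 and Ndufaf7 had 0.28, 0.34, 0.27 and 0.33. Ndufaf7 passed without primary 2 (adjusted p = 0.0134, limma), but had 0.459 at the highest when another tumour was left out. The pseudogene Ndufs5-ps had a change of 0.01 (adjusted p = 0.966, limma).

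Among subunits with a mean level of 7 or more, those with dimmer probes had larger median changes, in bands set after the values were seen. The median log2 change was -0.03 over 2 subunits below 7, 0.28 over 5 subunits with a mean level of 7 to 9, 0.20 over 10 subunits at 9 to 11, 0.12 over 21 at 11 to 13 and 0.08 over 33 at 13 and over. Over all genes the median lay between -0.04 and -0.01 in the bands from 7 upward. The 3 genes that passed were in the bands of 7 to 9 (Atp5o and Atp5e) and 9 to 11 (Ndufb10). Of the brightest 33 subunits 25 lay above 0.

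Each tumour was then summarised by 1 value: the median deviation of its 71 subunit genes, each set against that gene's average across the 16 arrays. This value was -0.05 at the lowest, 0.04 at the median and 0.13 at the highest in single TIC tumours, -0.04 and 0.05 in lin- tumours, and -0.14 at the lowest, -0.07 at the median and 0.01 at the highest in primary tumours. The groups overlapped: single TIC 8 and single TIC 9 lay below 0, and primary 4 above. For complex V the range was -0.07 to 0.22 in single TIC and -0.19 to 0.01 in primary tumours, and for complex III it was -0.07 to 0.10 and -0.07 to 0.06. Spread between tumours of a group was low for most subunits. Of 51 subunits with a mean level of 12 or more, the median SD within groups was 0.14, against 0.18 over all 927 genes that bright. An SD of 0.3 or more was found in 5 subunits: Cox8b, Ndufb11, Ndufb4, Ndufb9 and Uqcrfs1.

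**Figure D4:**
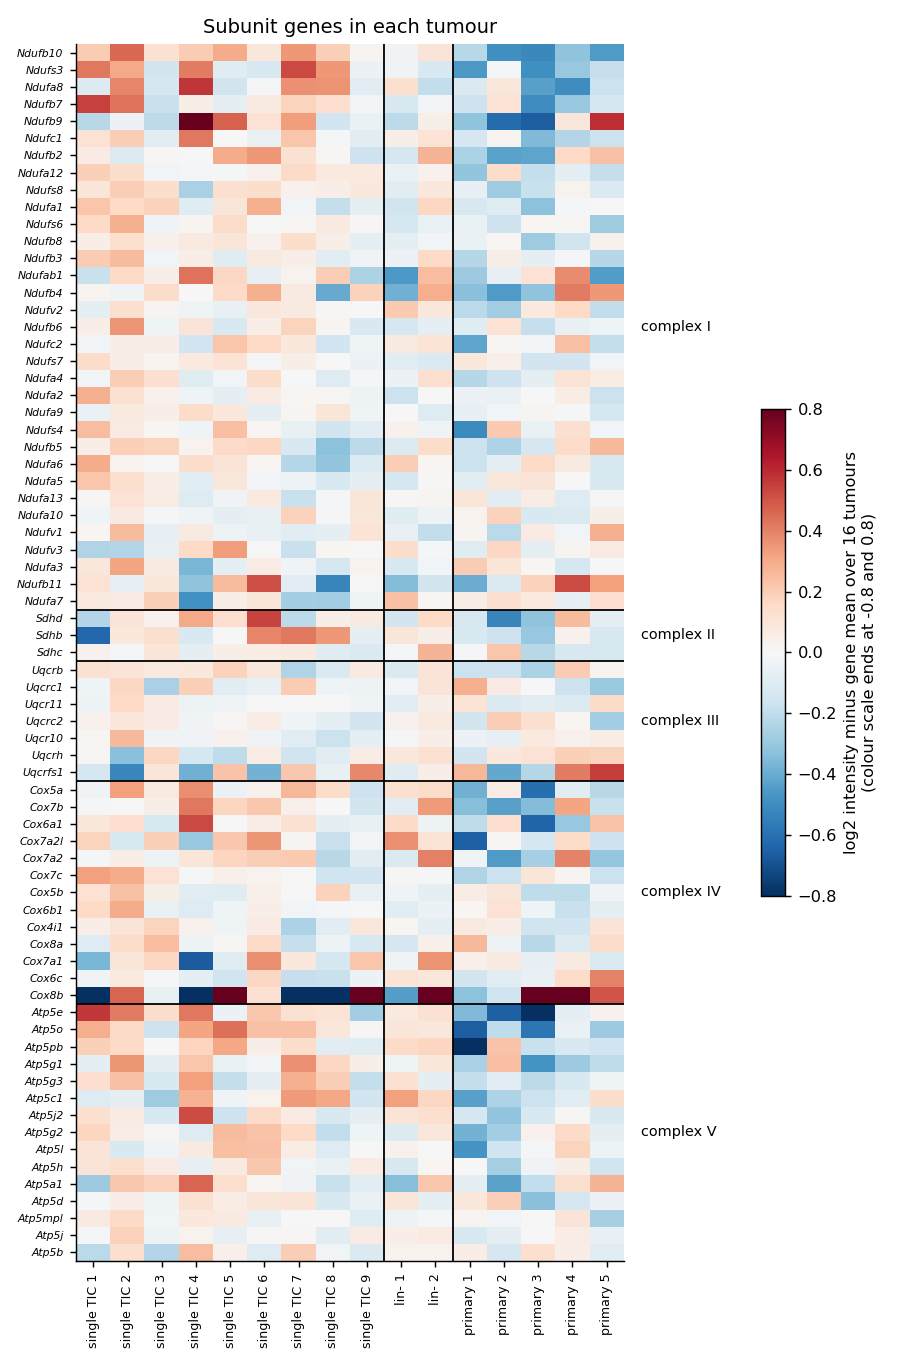
Level of each of the 71 subunit genes (rows, by complex and ordered by change) in each of the 16 tumours (columns), as the deviation in log2 intensity from that gene's average across all arrays. Red is above and blue below the mean, with the colour scale ending at -0.8 and 0.8. Ndufb10 is below its mean in all 5 primary tumours, and Cox8b has both ends of the scale within the single TIC tumours.

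The lin- tumours stood between or beside the other groups, with wide errors since there were 2 of them. No gene passed the test in lin- against primary tumours, of the 77 or of all 9903 (0% called, limma). At an unadjusted p under 0.05, limma gave 5 of 77 higher and 0 lower, against 3.68% and 6.17% of all genes. The median log2 change over the subunits was 0.07 (52 of 71 above 0, and 46.8% of all genes), and by complex 0.05, 0.18, 0.02, 0.09 and 0.12 for I to V. When 1 tumour was left out these medians ran between 0.018 and 0.097 in complex I, 0.038 and 0.32 in II, -0.025 and 0.060 in III, 0.027 and 0.13 in IV, and 0.094 and 0.20 in V. Ndufb10 had a change of 0.44 (95% interval 0.16 to 0.71, adjusted p = 0.323), Atp5o 0.45 (0.08 to 0.82, adjusted p = 0.416) and Atp5e 0.47 (-0.02 to 0.97, adjusted p = 0.535, all limma). These comparisons share the primary tumours with those above and are not independent of them. Both lin- tumours were above all 5 primary tumours for 9 of the 77 genes, these 3 among them, against 6.24% of all genes, and below all of them for 0, against 8.61%.

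Between single TIC and lin- tumours no gene passed either (0% called, limma), and at an unadjusted p under 0.05, limma gave 0 of 77 in either direction, against 0.919% higher and 0.767% lower of all genes. The median log2 change over the subunits was 0.05 (43 of 71 above 0, and 48.5% of all genes), and by complex 0.08, -0.01, -0.04, -0.03 and 0.05 for I to V. When 1 tumour was left out, the medians of complexes II, III and IV lay on either side of 0 (-0.071 to 0.075, -0.078 to 0.029 and -0.064 to 0.045). The largest single value above 0 was in Ndufs3, 0.25 (95% interval -0.15 to 0.65). The intervals bound the difference to within 1.5-fold for 63 of 71 subunits and 2-fold for all but Cox8b. This does not show that the groups are alike.

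Other lists of mitochondrial genes were set beside the subunits. Of the assembly and quality factors, 29 of 36 were measured, with a median log2 change of 0.17 between single TIC and primary tumours, and 2 rose, where 2.13% of all genes were called higher and 4.13% lower. Sdhaf1, which helps to assemble complex II, had 9.77 at the lowest, 10.08 at the median and 10.35 at the highest in single TIC tumours and 9.13 to 9.85 in primary tumours (log2 change 0.53, SE 0.12, adjusted p = 0.0214, limma). It missed the threshold without primary 1 (0.0572) or primary 3 (0.0608). Tmem70, which helps to assemble complex V, rose by 0.38 (SE 0.11, adjusted p = 0.0419, limma) and lost its call in 13 of 16 fits that left out 1 tumour (adjusted p 0.0530 to 0.111), holding it without primary 2 and single TIC 7 and 9.

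Esrra, the estrogen-related receptor alpha, a transcription factor known to drive genes of mitochondrial energy production, was among 15 of 17 measured regulators of mitochondrial biogenesis. Its levels were 10.39 at the lowest, 10.54 at the median and 11.03 at the highest in single TIC tumours, 10.57 and 10.95 in lin- tumours, and 9.88 at the lowest, 10.06 at the median and 10.18 at the highest in primary tumours. Every secondary tumour exceeded every primary one, and the change was 0.60 (SE 0.11, adjusted p = 0.00858, limma). It held in every fit that left out 1 tumour and had a change of 0.62 with an adjusted p of 0.0705 with mean raw intensity as a covariate. The other 5 genes of these lists that passed missed the threshold with it too, at changes of 0.52 (Sdhaf1), 0.43 (Tmem70), -0.37 (Polg), 0.60 (Timm10) and 0.30 (Glrx2). Polg, the catalytic subunit of the mitochondrial DNA polymerase, fell by 0.36 (SE 0.10, adjusted p = 0.0445, limma), and lost its call in 11 of 16 such fits (leaving out primary 1, 3, 5, lin- 1, 2 and single TIC 1, 4, 5, 6, 7, 8 in turn, adjusted p 0.0541 to 0.124). Its accessory subunit Polg2 had -0.53 (adjusted p = 0.0863, limma). The adjusted p of Polg2 was 0.0414 without single TIC 5 and reached 0.213 without another tumour (limma). The list's median was -0.05.

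In the import and antioxidant lists 1 gene each rose, beside the same 2.13% of all genes. Timm10, a chaperone of mitochondrial protein import, rose by 0.59 (SE 0.14, adjusted p = 0.0215, limma), 1 of 21 measured import genes (of 24, median 0.00). It missed the threshold without primary 1, 3 or 5 (adjusted p 0.0526 to 0.0593). Glrx2, mitochondrial glutaredoxin, rose by 0.38 (SE 0.09, adjusted p = 0.0190, limma), 1 of 8 measured antioxidant genes (of 10, median 0.07), but missed the threshold without primary 1 (0.0507) or 3 (0.0590), and with the mean of all its probes it had -0.14 (adjusted p = 0.546). Gpx1, glutathione peroxidase, had 0.34 (adjusted p = 0.0724, limma). It passed without primary 2 (0.0264), with median scaling (0.0493) and with array weights (0.0251). Its adjusted p reached 0.171 without another tumour and 0.178 under the other alternatives (all limma).

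No gene passed among the 16 of 18 measured genes of the tricarboxylic acid cycle and pyruvate dehydrogenase (median 0.00, 8 above 0) or the 18 of 22 for cytochrome c, carriers and uncoupling (median 0.11, 13 above 0). The largest changes in the first list were in Suclg2, a succinyl-CoA ligase subunit (-0.32, adjusted p = 0.0568), and Pdhb, a pyruvate dehydrogenase subunit (0.31, adjusted p = 0.166). In the second they were in Gpd2, the mitochondrial glycerol-3-phosphate dehydrogenase (0.27, adjusted p = 0.491), and Vdac3, an outer membrane channel (0.23, adjusted p = 0.205). Suclg2 passed with the authors' processed values or no background correction (0.0362), an offset of 50 (0.0463) and probes detected on all 16 arrays (0.0445). It also passed without single TIC 5 (0.0464), but had 0.147 at the highest without another tumour and 0.548 under the other alternatives. Vdac3 had 0.0325 without primary 2 and 0.451 at the highest without another tumour (all limma).

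**Figure D5:**
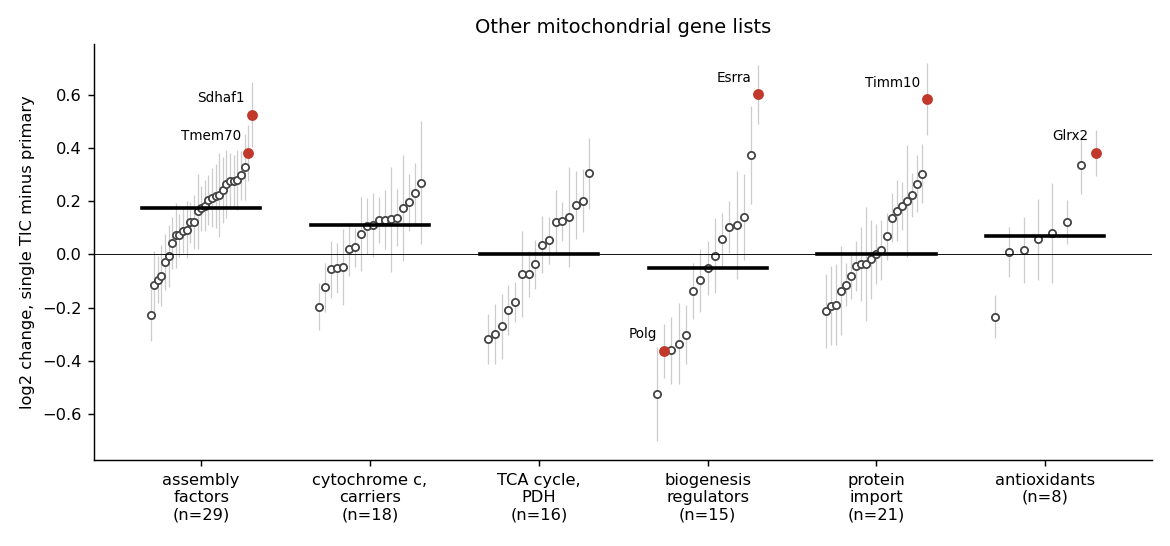
Log2 change, single TIC minus primary, of each measured gene (circles, ± SE) in 6 lists of related mitochondrial genes, with the list median as a thick bar. Filled circles passed an adjusted p of 0.05: Sdhaf1 and Tmem70, Esrra and Polg, Timm10, and Glrx2. Medians run between -0.05 (regulators of biogenesis) and 0.17 (assembly and quality factors).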

How the data were processed

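Total RNA of 16 tumours was measured on Illumina mouse bead arrays. Per the file headers, 1 deposited table pairs a raw intensity with a detection p-value for each of 25697 probes and each tumour. A second table, deposited as processed, has intensities that share their quantiles across arrays. The submitters' processing notes name BeadStudio, whose version is not given in the sources used here. Groups were taken from the labels.

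Raw intensities were background-corrected with limma 3.58.1 in R 4.3.3 (nec with detection p-values, offset 16), quantile-normalized and taken to log2. Fold changes of dim probes are understated by the offset. Probes needed a detection p under 0.05 on at least 2 arrays, and the brightest kept probe stood for each of 9903 genes. Of the 77 genes described, 13 had several kept probes, and those of Ndufv3 and Uqcr10 differed in direction. Sizes differed too, either way: the probe used and a dimmer one gave 0.05 and 0.40 for Atp5j, and 0.49 and 0.37 for Ndufaf5. With the mean of all kept probes Ndufb10, Atp5o and Atp5e passed, as in the main fit. Groups were compared with lmFit and eBayes, 3 group means sharing 1 spread, two-sided, with Benjamini-Hochberg adjustment over all genes; intervals are 95% and unadjusted. All adjusted p-values are limma's. The fit was tested on simulated data with independent noise for each gene and planted log2 changes of 1 or 2 in either direction. Those changes are larger than any found in the 77 genes, so the simulation does not gauge how well smaller ones are found. The number of arrays limits the precision.

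The genes and lists were chosen with earlier results of these data known. Named genes are those passing the test, the 3 largest changes of each complex, isoform pairs and non-subunits; from each other list, those passing and the 2 largest. Ndufb4, Ndufb9, Ndufb11, Atp5a1, Atp5b, Uqcrc1 and Uqcrc2 and the undetected genes were added after their values were seen. Alternatives were the authors' values, no background correction, median scaling, offset 50, other detection filters, the mean of probes, an intensity covariate, array weights, 2 groups only and leaving out each tumour; leaving out primary 2 and single TIC 4 together was chosen after seeing the data.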

Additional observations from a re-analysis of the deposited data

Results flagged for a closer look

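Of 100 groups of values tested for a sample far from the others, 2 stood out, and chance alone would flag about 1 in 20 groups. Cox6a1, the ubiquitous isoform of a complex IV subunit, had a level of 14.35 in single TIC 4, where the next highest single TIC tumour had 13.96. Ndufs5-ps, a pseudogene named for a complex I subunit, had 10.77 in single TIC 1, where the next lowest single TIC tumour had 11.35.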

How the results depend on the processing

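Ndufb10 kept its call in single TIC against primary tumours under all 27 alternatives run (log2 change 0.57 to 0.66, limma adjusted p 0.00161 to 0.0334). The alternatives share most of their data. The authors' processed values and no background correction gave nearly the same results (689 of all genes passed in each) and are not separate checks. The count of the 77 genes passing as higher was 1 with mean raw intensity as a covariate (18 of all genes passed), 7 without primary 2 and single TIC 4 (chosen after seeing the data; 761 of all genes), and 1 to 7 when each tumour was left out (260 and 784 of all genes in those 2 fits). Atp5e also missed the threshold without a detection filter (0.0581), with only the 2 groups compared (0.0576) and without both of those tumours (0.106, all limma). With median scaling the median change was 0.161 in complex I (0.105 in the main fit) and 0.0749 in complex III (0.0125 in the main fit). The median of all genes was -0.0018 with median scaling and -0.0218 in the main fit. Leaving out 1 tumour, the median of all 77 genes ran between 0.0270 and 0.154 in lin- against primary tumours and between -0.0180 and 0.0750 in single TIC against lin- tumours. In the last comparison it ran between -0.0209 and 0.0797 over subunits, 0.0206 and 0.125 in complex I and -0.0782 and 0.0289 in complex III, the ends being the fits without lin- 1 or lin- 2, which leave 1 lin- tumour assumed to vary like the others. Glrx2 reversed to -0.14 with the mean of its probes. No gene of the 77 passed in either comparison with lin- tumours under any alternative. No paired analysis was possible because the labels do not state which tumours share a donor. A slide block was not run, since the files used here name no slide. Causes were not tested.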
